A study of Rattus norvegicus with 241 samples.

Results

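Luminal mammary epithelial cells of young ACI rats were compared 14 days after the end of treatment with TGFBRi or with vehicle. These libraries make up 6 of the 202 bulk RNA libraries and of the 241 samples of the series, and they were taken by their labels for strain, age group, cell type and day. The inhibitor, LY2157299 (galunisertib), is a small molecule that blocks the kinase of the type I TGFβ receptor. Virgin female ACI rats, an inbred strain used as a model of estrogen-induced mammary tumors, received 75 mg/kg by oral gavage in 2 doses a day for 10 days from 35 days of age, or the vehicle alone. Mammary glands were collected on day 14 after the last dose from 3 TGFBRi-treated rats and 3 vehicle-treated rats. Glands were dissociated and used fresh or after freezing, which the labels do not give per rat, and luminal cells were sorted as CD24+CD29low among cells negative for CD31 and CD45. Basal cells (CD24+CD29high) of the same 6 rats, and luminal cells of other rats killed on day 0 and day 7, served for comparison. No rat carried a transgene or a tumor-inducing treatment.

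TGFβ ligands bind a pair of receptor kinases that phosphorylate SMAD proteins, which then enter the nucleus and switch genes on or off. In the mammary gland the pathway restrains epithelial growth, controls the matrix around ducts, and is known to hold back milk production during pregnancy. Luminal cells line the ducts and alveoli: alveolar cells make caseins, whey proteins and milk fat when prolactin activates STAT5, and hormone-sensing cells carry receptors for estrogen, progesterone and prolactin. Other gene groups described here are the enzymes of cholesterol synthesis, which the transcription factor SREBF2 controls as a unit, and the SR proteins, splicing factors rich in serine and arginine that gather in nuclear speckles and help select exons.

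In the day 14 luminal cells of TGFBRi-treated rats, some genes for SR proteins and for cholesterol synthesis were higher and some genes for milk proteins and milk fat were lower at an unadjusted p. After adjustment over all genes limma called none, and DESeq2 called 256 genes, or 150 without TGFBRi rat 3, whose library stood apart. Of 50 SR and nuclear speckle genes tested, 47 had a fold change above 0, beside 52.2% of all genes. At an unadjusted p below 0.05 in limma, 28 were higher, beside 4.71% of all genes, and 0 lower. Of 25 cholesterol genes, 22 were above 0, 9 were higher at that p and 1 was lower, beside 3.64% of all genes lower. Of 12 milk protein genes, 10 were below 0 and 5 were lower at that p. Of 20 milk fat genes, 16 were below 0 and 6 were lower. Over all genes tested, 40.1% were below 0. The milk protein β-casein (CSN2) had a mean of 107383 ± 118276 normalized counts in vehicle-treated rats and 1378 ± 1403 in TGFBRi-treated rats (SD, n = 3 each). Values throughout are normalized counts, that is, reads per gene divided by the library's DESeq2 size factor, which need not follow its depth. Fold changes are TGFBRi minus vehicle on the log2(normalized count + 1) scale with the standard error (SE).

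To show the promoters of the genes with the largest milk protein and cholesterol differences, the 250 bases before the annotated start are printed, read 5′ to 3′ on the gene's strand from RefSeq on build GRCr8, a later build than the rn6 assembly of the deposited files. Capitals mark TTCNNNGAA, the sequence that STAT proteins recognize, in the 3 milk protein genes, and CCAAT, read on either strand (ATTGG where it lies on the other strand), in the 2 cholesterol genes. The windows are chr14:20601574-20601823 on the plus strand for CSN2, chr14:20574472-20574721 on the minus strand for CSN1S2A, chr7:136561300-136561549 on the minus strand for GLYCAM1, chr16:29746863-29747112 on the plus strand for MSMO1 and chr17:66547525-66547774 on the minus strand for IDI1.
CSN2: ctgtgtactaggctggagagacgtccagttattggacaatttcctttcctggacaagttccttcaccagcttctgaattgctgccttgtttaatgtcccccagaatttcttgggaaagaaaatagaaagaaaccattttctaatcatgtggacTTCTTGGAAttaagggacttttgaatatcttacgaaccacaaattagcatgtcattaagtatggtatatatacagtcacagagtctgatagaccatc
CSN1S2A: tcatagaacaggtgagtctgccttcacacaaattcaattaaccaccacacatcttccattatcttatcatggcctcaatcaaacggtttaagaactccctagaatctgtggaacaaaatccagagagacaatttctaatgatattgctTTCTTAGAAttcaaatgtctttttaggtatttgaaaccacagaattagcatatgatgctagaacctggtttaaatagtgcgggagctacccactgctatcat
GLYCAM1: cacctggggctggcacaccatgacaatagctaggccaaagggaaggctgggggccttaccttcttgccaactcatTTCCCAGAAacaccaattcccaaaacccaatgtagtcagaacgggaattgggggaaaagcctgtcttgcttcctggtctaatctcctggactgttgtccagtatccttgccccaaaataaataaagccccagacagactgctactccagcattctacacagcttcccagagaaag
MSMO1: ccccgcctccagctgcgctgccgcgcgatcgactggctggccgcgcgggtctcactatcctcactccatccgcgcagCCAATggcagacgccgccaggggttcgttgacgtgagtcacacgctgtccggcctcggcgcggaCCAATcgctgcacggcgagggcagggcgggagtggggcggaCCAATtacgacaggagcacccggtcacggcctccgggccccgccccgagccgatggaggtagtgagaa
IDI1: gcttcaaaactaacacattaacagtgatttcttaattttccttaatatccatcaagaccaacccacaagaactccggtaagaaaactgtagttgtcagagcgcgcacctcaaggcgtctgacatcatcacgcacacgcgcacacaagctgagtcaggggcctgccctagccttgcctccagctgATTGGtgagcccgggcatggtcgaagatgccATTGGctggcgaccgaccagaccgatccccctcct
The TTCNNNGAA match began 97 bases before the start of CSN2, 175 before that of GLYCAM1 and at a point between these for CSN1S2A. MSMO1 held CCAAT at 173, 109 and 68 bases before its start, and IDI1 held ATTGG at 66 and 35 bases. Searched on both strands in 27457 promoters of this length, TTCNNNGAA was found in 8.19%, in 5 of 12 milk protein promoters (CSN1S1, CSN1S2A, CSN1S2B, CSN2 and GLYCAM1), in 0 of 14 milk fat promoters, in 1 of 17 cholesterol promoters and in 1 of 43 promoters of SR and speckle genes. CCAAT was found in 36.1% of all promoters, in 14 of 17 cholesterol promoters, in 20 of 43 SR promoters, in 7 of 14 milk fat promoters and in 5 of 12 milk protein promoters. The other motif, TCACNCCAC, a sterol response sequence, was found in 1.09% of all promoters in 0 of the 17 cholesterol promoters and in 1 of 14 milk fat promoters. None of the motifs overlaps another in its letters, all were picked after sequences of several kinds had been searched, and a match describes these letters and is not a measured binding site.

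The 6 libraries held 15798858 to 23206431 reads on genes, recovered from the normalized values. The sort matched its label: the summed luminal keratins, claudins and other luminal markers were 689756 to 759789 normalized counts in the luminal libraries of TGFBRi-treated rats and 478948 to 674266 in those of vehicle-treated rats, against 101063 to 133405 in the basal libraries of the same rats. Basal markers summed to 1376 to 8267 in luminal libraries against 290980 to 827324 in basal libraries, and the basal keratin KRT14 was listed between 295 and 1773 in the luminal libraries. KRT8, a luminal keratin, was 103724, 140319 and 114692 in vehicle-treated rats 1 to 3 and 176572, 183378 and 149796 in TGFBRi-treated rats 1 to 3, so the luminal identity of both groups was plain. The luminal list itself had a median log2 fold change of 0.51, or 0.35 without TGFBRi rat 3, and 4 of its 11 members tested had groups apart in the higher direction (beside 7.61%), with 0 at an unadjusted p below 0.05 (beside 4.71%). The part of this difference in the other results was not tested. Because these are bulk libraries, fewer cells of one luminal kind and less RNA per cell cannot be told apart.

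**Figure D1:**
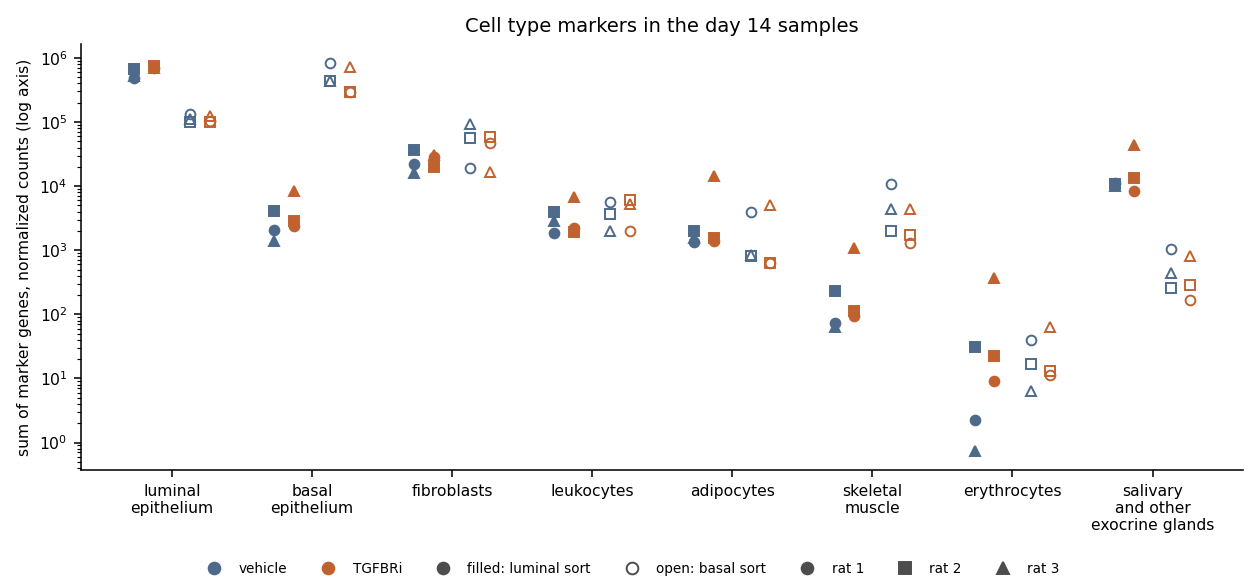
Summed normalized counts (log axis) of cell type marker lists in the 6 luminal and 6 basal day 14 libraries, 1 point per library. Luminal markers are highest in the luminal sort and basal markers in the basal sort, and TGFBRi rat 3 (filled triangle) lies above the other luminal libraries for basal, leukocyte, adipocyte, muscle, erythrocyte and salivary markers. Color gives the treatment and shape the rat, filled for luminal and open for basal cells.

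The luminal library of TGFBRi-treated rat 3 stood apart from the other 5. Its correlation across genes with the others was 0.912 to 0.932, against 0.967 to 0.984 among the rest, and the first principal component, which carried 53.5% of the variance, set it against the other 5. It held the fewest reads but the largest total of normalized counts, 2.70e+07 against 1.52e+07 to 1.77e+07 in the other 5. Its marker sums therefore stand on a larger total. Transcripts of other tissues were high in it: BPIFA2, a salivary protein, was 16331 in it, 6.15 and 0 in TGFBRi rats 1 and 2 and 0 in all 3 vehicle-treated rats. FABP4, a fatty acid carrier of adipocytes and capillaries, was 13367 in it and 390 to 1060 in the other 5. Over the whole lists, salivary markers summed to 8380 to 44589 in the TGFBRi group and 10065 to 11316 in the vehicle group, adipocyte markers to 1386 to 14490 against 1355 to 1988, skeletal muscle markers to 94.6 to 1065 against 64.4 to 230.001, and erythrocyte markers to 9.23 to 369 against 0.749 to 31.2. Leukocyte markers (1935 to 6747 against 1840 to 3960), fibroblast markers (19596 to 30727 against 16137 to 36285) and endothelial markers (1037 to 2530 against 1128 to 3532) overlapped between the groups in these sums, with TGFBRi rat 3 highest for leukocytes only. The median log2 fold change of the 10 fibroblast markers tested was 0.68, or 0.54 without rat 3, and their median against the vehicle mean was 0.36, 0.91 and 0.84 in TGFBRi-treated rats 1 to 3 and 0.12, 0.31 and -0.67 in vehicle-treated rats, so these medians did not overlap. AQP5 and SCGB2A2, which mammary epithelium also expresses, made up most of the salivary sum in the other 5 libraries, whereas the salivary AMY1A and SMR3A were 3730 and 468 in rat 3 and at 0 in the other 5. The part of these other transcripts in the results was not tested, and the fold changes and the counts at an unadjusted p of the main lists are given with and without that library. Counts of genes with groups apart rest on all 6 libraries.

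Across all 15181 genes tested, limma called 0 genes at an adjusted p of 0.05 or less (0%), with 1268 at an unadjusted p below 0.05, of which 715 were higher (4.71% of genes tested) and 553 lower (3.64%). The smallest adjusted p was 0.0905. The 2 treatment groups were apart, with all 3 TGFBRi-treated rats above or below all 3 vehicle-treated rats, for 1155 genes in the higher direction (7.61%) and 937 in the lower direction (6.17%). Without TGFBRi rat 3, 615 genes were higher (4.05%) and 330 lower (2.17%) at an unadjusted p below 0.05. On the recovered reads, edgeR's quasi-likelihood test called 0 genes, with 1471 at an unadjusted p below 0.05, and DESeq2 called 256, of which 170 were higher (1.49% of the 11438 genes with an adjusted p) and 86 lower (0.752%). Without TGFBRi rat 3 DESeq2 called 112 higher (0.929%) and 38 lower (0.315%). Of the genes that DESeq2 called, 247 also had groups that were apart (164 higher, 83 lower). Both were read from the same libraries, so this is no independent support for the calls. The median fold change of all genes tested was 0.04 on the log2 scale.

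SR proteins and their partners were the list with the most members higher at an unadjusted p below 0.05. Members of this and the other pathway lists were chosen with earlier results of these data known. Their shares beside those of all genes therefore describe the lists and are no test of enrichment. SRSF7, an SR protein that also acts in mRNA export, was 729, 877 and 627 in vehicle-treated rats and 2863, 3611 and 1980 in TGFBRi-treated rats. The lowest TGFBRi-treated rat was above the highest vehicle-treated rat, and the log2 fold change was 1.89 ± 0.36 (SE, limma adjusted p = 0.169), or 2.12 without rat 3. RSRP1, a small arginine- and serine-rich protein, was 3053, 3100 and 3034 against 12289, 12680 and 7896, with a fold change of 1.81 ± 0.36 on the log2 scale (limma adjusted p = 0.169) and 2.03 without rat 3. Its vehicle values were nearly alike, and rat 3 was the lowest of the treated rats. PNN (pinin), a speckle protein that binds SR proteins, was 1058, 950 and 958 against 2065, 2506 and 3482, a fold change of 1.41 ± 0.31 (limma adjusted p = 0.169) and 1.203 without rat 3. For PNN, rat 3 was the highest of the treated rats, so the library that stood apart lay at either end of its group from gene to gene.

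Of the 54 listed genes of this group, 50 were tested; RBM39, NKTR, U2AF2 and U2SURP were not. At an unadjusted p below 0.05, 28 were higher (beside 4.71% of all genes) and 0 lower, and in 29 the groups were apart in the higher direction (beside 7.61%), with 0 in the other. DESeq2 called 16 higher (beside 1.49%) and 0 lower, or 9 higher (beside 0.929%) without rat 3, and limma and edgeR called 0. The median log2 fold change was 0.86 over the list and 0.67 without TGFBRi rat 3, when 20 were higher at an unadjusted p below 0.05 (beside 4.05%). Per rat, the median of the list against the vehicle mean was 0.66, 0.85 and 1.07 in TGFBRi-treated rats 1 to 3 and -0.07, -0.01 and 0.05 in vehicle-treated rats 1 to 3, so no treated rat overlapped a vehicle rat. Other lists shared this, among them the cholesterol, milk protein, milk fat and NRF2 target lists below.

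The higher members covered several roles. Among classical SR proteins, SRSF2 was 5164, 8002 and 5225 in vehicle-treated rats against 10818, 13015 and 13016 (log2 fold change 1.03 ± 0.30), and SRSF5 was 6388, 5927 and 6196 against 11828, 12490 and 8361 (0.80 ± 0.25). SRSF11 was 1540, 2052 and 1962 against 4154, 3570 and 5677 (1.25 ± 0.31). All treated rats were above all vehicle rats for each. CLK4, a kinase that phosphorylates SR proteins, was 1118, 1072 and 1173 against 2005, 2225 and 1682 (0.81 ± 0.22), and TRA2B, a sequence-specific splicing activator, was 1728, 1830 and 2013 against 3094, 4341 and 5970 (1.22 ± 0.33). PNISR, a speckle protein, was 1136, 906 and 1003 against 3556, 2958 and 1687 (1.37 ± 0.33), LUC7L3, a U1-associated factor, was 458, 549 and 740 against 1519, 1629 and 3450 (1.84 ± 0.50), and ARGLU1 was 1188, 1649 and 1311 against 3378, 2985 and 4860 (1.42 ± 0.35). The groups did not overlap for these 5 genes either, and all 8 had limma adjusted p values between 0.229 and 0.358. Without rat 3 their fold changes ran from 0.91 for CLK4 to 1.68 for PNISR.

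The core spliceosome, whose proteins catalyze splicing itself, was described the same way. Of 32 members tested, 1 was higher at an unadjusted p below 0.05 and 0 lower (beside 4.71% and 3.64%), and without rat 3, 1 was higher and 1 lower (beside 4.05% and 2.17%). The member higher with all rats was PRPF3, a protein of the U4/U6 particle, and the median was 0.44 with all rats and -0.15 without TGFBRi rat 3. The lists of cytosolic ribosomal proteins (77 tested, median 0.63) and nuclear-encoded respiratory chain subunits (70 tested, median 0.48) likewise turned to -0.40 and -0.56 without rat 3. With all rats, 76 of the 77 and 60 of the 70 had a fold change above 0, beside 52.2% of all genes. Per rat, ribosomal protein genes had medians of -0.72, -0.05 and 2.72 in TGFBRi-treated rats 1 to 3 and of -0.29, 0.32 and -0.03 in vehicle-treated rats, so their positive median came from 1 library, whereas that of the SR genes did not. The list of nuclear-retained long noncoding RNAs was measured through 2 members, GAS5 and SNHG11. MALAT1, NEAT1, MEG3 and KCNQ1OT1 were among the 6 not tested, so the list gives no measure of nuclear RNA content. SNHG11 was 3.77, 0.762 and 5.24 in vehicle-treated rats against 13.1, 24.5 and 27.4 (2.53 ± 0.81, limma adjusted p = 0.358, and 2.34 without rat 3). These levels are near the floor, where 1 read was worth 0.749 to 1.71 normalized counts. The part of RNA quality or of nuclear RNA content in the SR values was not tested.

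**Figure D2:**
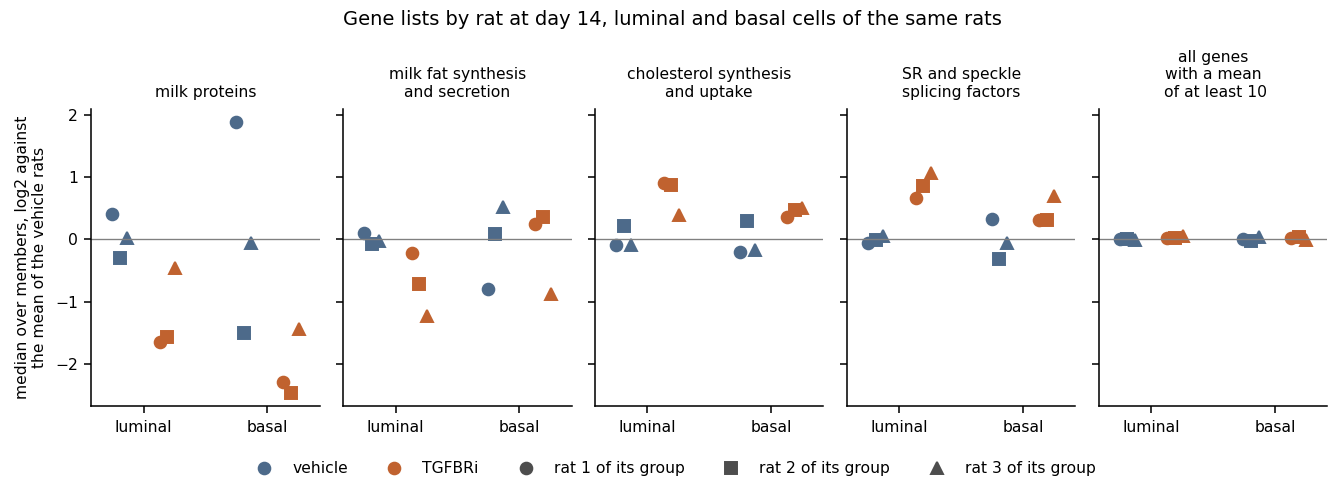
Median log2 level of each gene list against the mean of the vehicle-treated rats (y axis), 1 point per rat, for luminal and basal cells on day 14, with the median of all genes of mean at least 10 in the last panel. SR genes lie between 0.66 and 1.07 in the luminal cells of the 3 TGFBRi-treated rats. In those of the vehicle-treated rats they lie between -0.07 and 0.05, and their basal groups overlap. Basal groups of the cholesterol genes do not overlap.

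Of the cholesterol genes, 22 of 25 had a fold change above 0, beside 52.2% of all genes tested. MSMO1, a methylsterol oxidase late in the pathway, was 784, 1053 and 933 in vehicle-treated rats and 3787, 3328 and 3106 in TGFBRi-treated rats. The groups were far apart, with means of 923 ± 135 and 3407 ± 347 (SD, n = 3 each), and the log2 fold change was 1.89 ± 0.38 (limma adjusted p = 0.169), or 1.95 without rat 3. IDI1, the isomerase that makes the allylic isoprene unit, was 556, 763 and 481 against 1848, 2200 and 4349, a fold change of 2.14 ± 0.53 (limma adjusted p = 0.229) and 1.77 without rat 3. Its treated rats were all above the vehicle rats and rat 3 was the highest. These are the 2 genes whose CCAAT-bearing promoters are printed above.

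Further along the pathway, FDFT1 (squalene synthase) was 873, 1123 and 961 in vehicle-treated rats against 1946, 2044 and 1880 in TGFBRi-treated rats, with a log2 fold change of 1.00 ± 0.25 (limma adjusted p = 0.233). SQLE (squalene epoxidase) was 204, 367 and 255 against 884, 645 and 479 (1.28 ± 0.37, limma adjusted p = 0.301), and HSD17B7, a sterol ketoreductase, was 48.2, 60.2 and 40.4 against 107.7, 135 and 183 (1.48 ± 0.32, limma adjusted p = 0.169). STARD4, a carrier that moves cholesterol between membranes, was 45.97, 66.3 and 38.2 against 135, 123 and 164 (1.496 ± 0.43, limma adjusted p = 0.292). In all 4 the treated rats lay above the vehicle rats, and without rat 3 the fold changes ran from 1.02 for FDFT1 to 1.49 for SQLE. SREBF2 itself was 2026, 3062 and 2127 against 3692, 3838 and 3094, with groups just apart and a fold change of 0.58 ± 0.25 (limma adjusted p = 0.548), or 0.67 without rat 3.

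Some members differed between the treated rats. INSIG1, a sterol-regulated protein of the endoplasmic reticulum, was 2031, 3265 and 2750 in vehicle-treated rats and 10504, 8704 and 1675 in TGFBRi-treated rats, and HMGCS1, a synthase early in the pathway, was 1171, 1206 and 1125 against 3274, 3229 and 833. For both genes rats 1 and 2 were above and rat 3 below all vehicle rats. Log2 fold changes were therefore 1.02 and 0.82 with all rats and 1.86 and 1.48 without rat 3. DHCR7, the enzyme of the last step, went the other way, at 3515, 1104 and 2452 against 1336, 828 and 518 (-1.35 ± 0.40, limma adjusted p = 0.304), or -1.01 without rat 3, with overlapping groups.

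All 25 cholesterol genes were tested. At an unadjusted p below 0.05, 9 were higher (beside 4.71% of all genes) and 1 lower (beside 3.64%), and groups were apart for 12, all in the higher direction (beside 7.61%). DESeq2 called 6 higher and 1 lower (beside 1.49% and 0.752%), and 6 and 0 without rat 3 (beside 0.929% and 0.315%). Without TGFBRi rat 3, 11 were higher and 1 lower at that p (beside 4.05% and 2.17%). The list median was 0.58 with all rats and 0.87 without rat 3. Per rat it was 0.90, 0.87 and 0.39 in TGFBRi-treated rats 1 to 3 and -0.09, 0.22 and -0.09 in vehicle-treated rats.

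Of the milk protein genes, 5 of 12 were lower at an unadjusted p below 0.05 (beside 3.64%), with wide spread between vehicle-treated rats. CSN2 (β-casein) was 237422, 6218 and 78510 in vehicle-treated rats 1 to 3 and 2998, 541 and 597 in TGFBRi-treated rats 1 to 3. The groups did not overlap, but the highest vehicle rat was far above the lowest. The log2 fold change was -5.62 ± 1.41 (limma adjusted p = 0.233), -5.26 without rat 3. CSN1S2A, a calcium-binding casein, was 4243, 331 and 1737 against 96.9, 75.9 and 209, with a fold change of -3.53 ± 1.37 (limma adjusted p = 0.488) and -3.96 without rat 3. GLYCAM1, a mucin-like milk protein, was 8764, 501 and 2593 against 152, 47.2 and 219 (-4.26 ± 2.17, limma adjusted p = 0.638), and -4.71 without rat 3. In all 3 genes vehicle rat 2 was the lowest of its group, and it was still above the highest treated rat.

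For a further 4 caseins and whey proteins, rat 3 lay within or above the range of the vehicle rats. CSN1S1 (αS1-casein) was 226764, 103026 and 158000 in vehicle-treated rats against 39826, 49548 and 118832, so its groups overlapped through rat 3, with a fold change of -1.33 ± 0.61 (limma adjusted p = 0.586) and -1.80 without it. WAP (whey acidic protein) was 15422, 2304 and 8063 against 902, 699 and 4571 (-2.21 ± 1.01, limma adjusted p = 0.583), and -3.05 without rat 3. LALBA (α-lactalbumin, a subunit of the lactose-making enzyme) was 182228, 158070 and 132168 against 42008, 60188 and 545764. Rats 1 and 2 were below every vehicle rat for LALBA while rat 3 was the highest of all 6, and the fold change was -0.49 with all rats and -1.63 without rat 3. CSN3 (κ-casein) was 494540, 294195 and 391279 against 151063, 145229 and 453669 (-0.84, and -1.38 without rat 3), with rats 1 and 2 below every vehicle rat and rat 3 within their range. MUC1, a mucin of the apical surface and the milk fat globule, was 2836, 2137 and 2443 against 1855, 1038 and 602, with groups apart (-1.22 ± 0.37, limma adjusted p = 0.311, and -0.82 without rat 3).

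Of 12 milk protein genes tested, 5 were lower (beside 3.64% of all genes) and 0 higher at an unadjusted p below 0.05, and 5 had groups apart in the lower direction (beside 6.17%). DESeq2 called 2, CSN2 and CSN1S2A, both lower (beside 0.752%), and 2 lower without rat 3 (beside 0.315%). The list median was -1.03 with all rats and -1.54 without rat 3, when 5 were lower (beside 2.17%). Per rat the median was -1.65, -1.56 and -0.45 in TGFBRi-treated rats and 0.40, -0.29 and 0.01 in vehicle-treated rats. Leaving out 1 rat at a time left 2 members lower without vehicle rat 1, which had the highest CSN2, and without TGFBRi rat 2, and 3 without TGFBRi rat 1 and without vehicle rat 3.

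**Figure D3:**
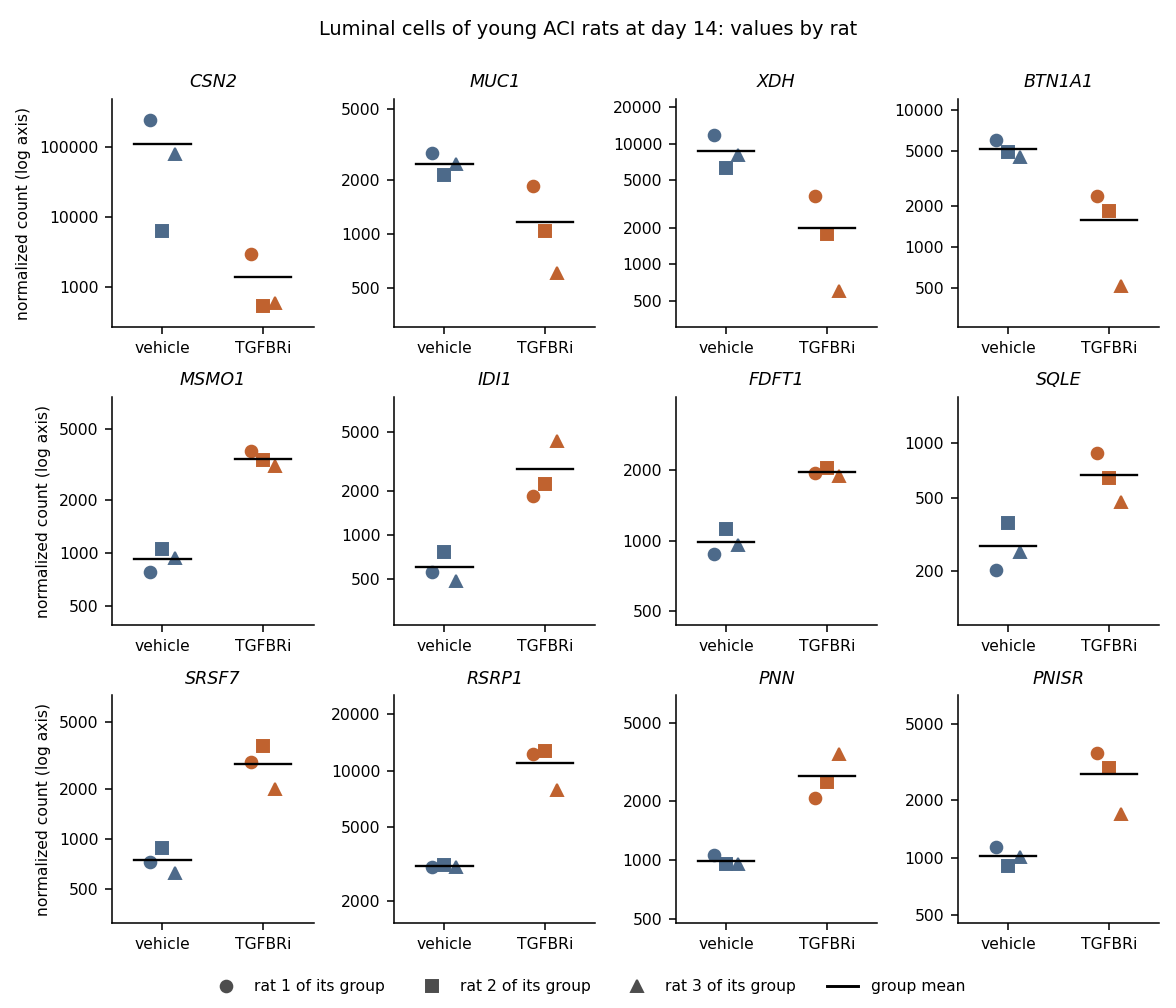
Normalized counts (log axis) of leading genes in the luminal cells of each vehicle-treated and TGFBRi-treated rat on day 14, with bars at the group means. The milk protein CSN2 runs from 6218 to 237422 in vehicle-treated rats and from 541 to 2998 in TGFBRi-treated rats, whereas SRSF7 and MSMO1 have narrow vehicle groups that lie below the treated rats.

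Of the genes for making and releasing milk fat, 6 of 20 were lower at an unadjusted p below 0.05 (beside 3.64%). XDH, which with butyrophilin builds the coat of the milk fat globule, was 11715, 6279 and 7988 in vehicle-treated rats and 3656, 1788 and 607 in TGFBRi-treated rats. BTN1A1 (butyrophilin) was 5967, 4889 and 4517 against 2360, 1822 and 523. The groups were apart for both, with fold changes of -2.40 ± 0.72 (limma adjusted p = 0.308) and -1.96 ± 0.63 (limma adjusted p = 0.359), and -1.71 and -1.29 without rat 3. FASN (fatty acid synthase) was 29557, 8979 and 25677 against 10810, 1476 and 1157, so that TGFBRi rat 1 overlapped vehicle rat 2 (-2.84 ± 0.95, limma adjusted p = 0.373, and -2.25 without rat 3). ACACA (acetyl-CoA carboxylase) was 219, 209 and 303 against 192, 53.1 and 34.2 (-1.75 ± 0.71, limma adjusted p = 0.510, and -1.24 without rat 3). SREBF1, the factor that drives fatty acid genes, was 7151, 4747 and 5222 against 5129, 2180 and 802 (-1.43 ± 0.71, limma adjusted p = 0.625, and -0.75 without rat 3), opposite in sign to SREBF2.

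Of 20 milk fat genes tested, 6 were lower (beside 3.64%) and 0 higher at an unadjusted p below 0.05, 6 had groups apart in the lower direction (beside 6.17%) and 1 in the higher. DESeq2 called 0 of them. The median was -0.77, and -0.44 without TGFBRi rat 3, when 4 were lower (beside 2.17%). Per rat it was -0.23, -0.71 and -1.24 in TGFBRi-treated rats and 0.11, -0.07 and -0.03 in vehicle-treated rats, so that rat 3 was lowest for fat genes and nearest the vehicle rats for milk proteins. Not all fat genes were lower: the lipid droplet coat PLIN2 was 85103, 131287 and 99847 against 114963, 126256 and 59115, and the lipase LPL was 5093, 4431 and 5067 against 5594, 5476 and 2253, both with overlapping groups.

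Genes with the smallest p were ranked among those with groups apart and a mean of at least 50 normalized counts. Several of them lay outside the SR, cholesterol and milk lists, and their groups were apart by this choice. SPEF2, a protein of the sperm flagellum and other motile cilia, was 76.9, 99.01 and 102.6 in vehicle-treated rats and 312, 401 and 434 in TGFBRi-treated rats. MACC1, a regulator of the MET growth factor receptor gene, was 335, 255 and 580 against 1175, 1292 and 1385. The groups were well apart for both genes, with log2 fold changes of 2.03 ± 0.32 and 1.80 ± 0.29 (both limma adjusted p = 0.0905) and of 1.93 and 1.74 without rat 3. RASA2, which shuts off Ras, was 245, 500.4 and 397 against 1015, 1188 and 1190 (1.62 ± 0.32). CDCA2, which brings a phosphatase to mitotic chromatin, was 37.7, 54.1 and 60.7 against 244, 140.04 and 123 (1.68 ± 0.34). CDCA2 is also a member of the G2/M list below and is counted there as higher. ANXA3, a membrane-binding annexin, was 115, 259.7 and 223 against 562, 947 and 1431 (2.27 ± 0.48). These 3, like SLC35E2B, ANKRD12 and LRRFIP1 (fold changes 1.59, 1.52 and 1.23), had limma adjusted p = 0.169 and groups that did not overlap. Without rat 3 the values of RASA2, CDCA2 and ANXA3 were 1.59, 1.87 and 1.95, and those of SLC35E2B, ANKRD12 and LRRFIP1 were 1.49, 1.47 and 1.19.

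Some genes with large fold changes were at lower levels. SFRP4, a secreted WNT antagonist, was 54.3, 39.6 and 102.6 against 277, 280.1 and 263 (2.16 ± 0.59, limma adjusted p = 0.261). Treated rats were above vehicle rats, and without rat 3 the value was 2.18. AKR1C3, whose reads can be shared with close relatives of the aldo-keto reductase family and which is therefore uncertain, was 4.52, 18.3 and 0.749 against 27.7, 19.4 and 238 (3.18 ± 1.06, and 2.08 without rat 3). TREX2 was 24.1, 3.05 and 18.0 against 40.0, 44.7 and 212 (2.56 ± 1.09, and 1.80 without rat 3). Both reached a mean of 50 normalized counts only through rat 3.

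The 12 lower genes with the smallest p were likewise ranked among those with groups apart and a mean of at least 50 normalized counts. Of these 12, 6 encode transporters, a grouping made after their values were seen and not tested. ABCG2, the efflux pump that concentrates riboflavin and drugs into milk, was 952, 457 and 592 in vehicle-treated rats and 118, 138 and 162 in TGFBRi-treated rats. SLC39A8, an importer of zinc and manganese, was 129, 73.9 and 95.8 against 26.9, 5.91 and 6.84. SLC13A2, a carrier of dicarboxylates and citrate, was 304, 86.1 and 271 against 53.1, 32.9 and 10.3. None of these groups overlapped, which was a condition of the choice. The log2 fold changes were -2.19 ± 0.44, -3.09 ± 0.59 and -2.82 ± 0.56 (limma adjusted p = 0.169 for each), with -2.31, -2.82 and -2.17 without rat 3. SLC38A3, a glutamine carrier, was 1271, 1036 and 995 against 525, 388 and 219 (-1.62 ± 0.35), and SLC26A2, a sulfate carrier, was 326, 94.4 and 186 against 69.997, 35.4 and 27.4 (-2.10 ± 0.46). ABCD4, which acts in lysosomal export of vitamin B12, was 945, 645 and 802 against 445, 286 and 274 (-1.27 ± 0.29). Their limma adjusted p values were 0.169, 0.182 and 0.222, and without rat 3 their fold changes were -1.28, -1.82 and -1.14. SLC39A8, SLC13A2 and SLC26A2 reached a mean of 50 normalized counts only through the vehicle rats.

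Other lower genes with groups apart were FECH (ferrochelatase, the last enzyme of heme synthesis), at 1028, 688 and 819.96 against 314, 342 and 323 (-1.35 ± 0.29), and NTN4, a secreted netrin of basement membranes, at 142, 109 and 106.3 against 43.1, 29.5 and 35.9 (-1.69 ± 0.35). CDC42BPG, a kinase that acts on the cytoskeleton, was 327, 176 and 273 against 51.5, 82.7 and 88.9 (-1.78 ± 0.38), and SEZ6 was 206, 158 and 168 against 9.23, 47.2 and 15.4 (-3.14 ± 0.68). LAO1, an amino acid oxidase secreted in milk, was 243, 123 and 152 against 27.7, 42.2 and 35.9 (-2.22 ± 0.51), and LPO (lactoperoxidase, found in milk and saliva) was 139, 79.2 and 112 against 4.62, 18.6 and 15.4 (-3.16 ± 0.85). Their limma adjusted p values ran from 0.169 to 0.254. NTN4, SEZ6, LAO1 and LPO likewise reached a mean of 50 normalized counts only through the vehicle rats.

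**Figure D4:**
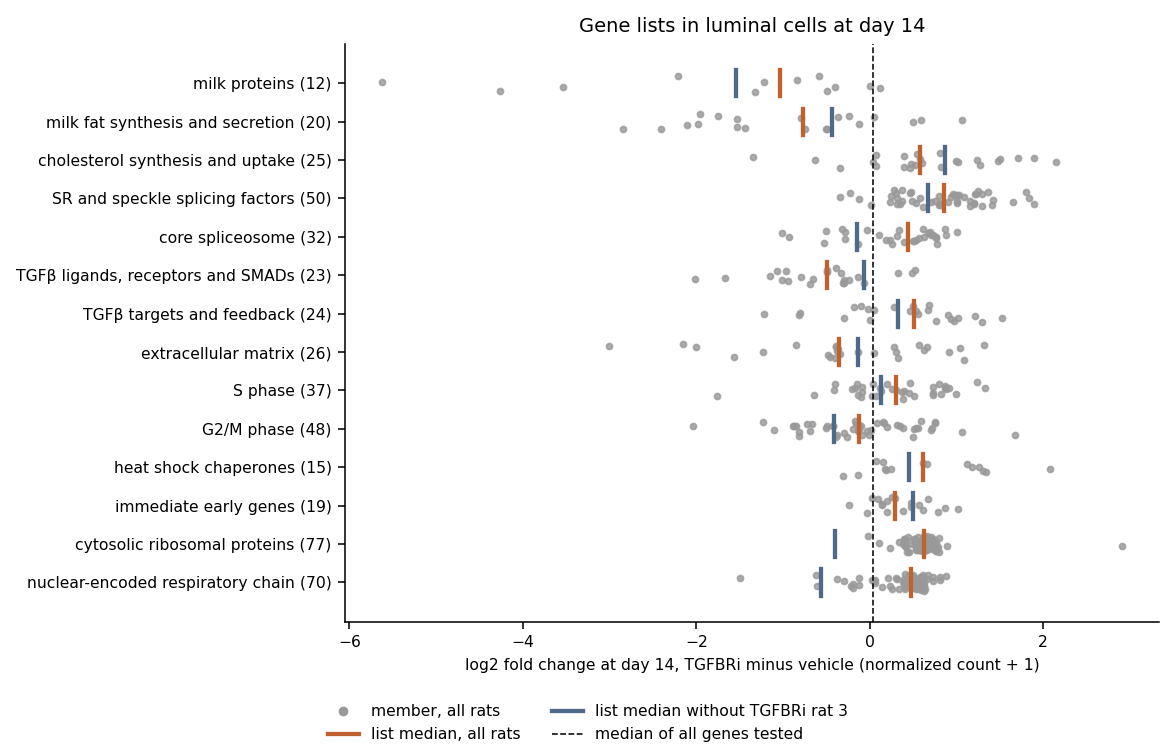
Log2 fold change of TGFBRi against vehicle (x axis) for each gene of the lists in day 14 luminal cells, 1 gray point per gene, with the list median over all rats (orange) and without TGFBRi rat 3 (blue). The SR list has 47 of 50 members above 0 (beside 52.2% of all genes tested) and the milk protein list 10 of 12 below 0 (beside 40.1%). The dashed line is the median of all genes tested, 0.04. The ribosomal list has 76 of 77 above 0. Its median and those of the core spliceosome and respiratory lists cross 0 without rat 3.

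Genes of the targeted pathway itself were described by role. Among the ligands, TGFB3 was 9029, 8084 and 6814 in vehicle-treated rats and 4499, 2796 and 1233 in TGFBRi-treated rats, with groups apart and a log2 fold change of -1.67 ± 0.50 (limma adjusted p = 0.311), or -1.16 without rat 3. TGFB1 (180.1, 129 and 231 against 208, 136 and 99.2) overlapped between groups. LTBP2, a matrix protein of the latent TGFβ binding family, was 503, 727 and 428 against 178, 140.04 and 94.02, with groups apart (-2.01 ± 0.59, limma adjusted p = 0.304), and -1.76 without rat 3. The receptors differed through rat 3: TGFBR1, the kinase that the drug blocks, was 1390, 1275 and 1520 against 2456, 1415 and 104.3, and TGFBR2 was 732, 815 and 885 against 981, 764 and 168. SMAD2, a signal carrier, was 579, 708 and 562 against 762, 909 and 976 (0.52 ± 0.22, limma adjusted p = 0.519, and 0.44 without rat 3).

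Over the 23 ligands, receptors, SMADs and latency proteins, 1 was higher and 2 lower at an unadjusted p below 0.05 (beside 4.71% and 3.64%), and the median was -0.49, or -0.06 without TGFBRi rat 3. Of these 23, 20 had a fold change below 0, beside 40.1% of all genes. Their median per rat against the vehicle mean was 0.20, -0.23 and -1.44 in TGFBRi-treated rats 1 to 3 and -0.07, 0.21 and -0.08 in vehicle-treated rats. Over 24 target and feedback genes tested, 1 was higher and 0 lower, and the median was 0.52, or 0.32 and 2 higher (beside 4.05%) without rat 3. Per rat, the median of these target genes against the vehicle mean was 0.41, 0.45 and 0.50 in TGFBRi-treated rats 1 to 3 and -0.18, 0.37 and -0.29 in vehicle-treated rats, which did not overlap, and 17 of 24 had a fold change above 0, beside 52.2% of all genes. In basal cells the median fold change of the target list was -0.13. The gene higher with all rats was ITGB6, an integrin subunit that activates latent TGFβ, at 105.5, 104.3 and 98.8 against 199.99, 282 and 164 (1.02 ± 0.41, limma adjusted p = 0.511, and 1.199 without rat 3). PMEPA1, a feedback inhibitor, was 2157, 2996 and 3054 against 3635, 3654 and 3928 (0.47 ± 0.32, limma adjusted p = 0.753, and 0.43 without rat 3).

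Matrix genes gave 0 higher and 4 lower of 26 tested at an unadjusted p below 0.05 (beside 4.71% and 3.64%), with a median of -0.36, or -0.13 without rat 3. Leaving out any 1 rat gave medians from -0.44 to 0.09, with the value above 0 without vehicle rat 2. COL14A1, a fibril-associated collagen, was 2614, 2197 and 2300 against 728, 439 and 639 (-2.003 ± 0.42, limma adjusted p = 0.169). VWA1, a basement membrane protein, was 2368, 1822 and 1698 against 1061, 822 and 656 (-1.23 ± 0.29, limma adjusted p = 0.226), and CHRDL2, a secreted BMP antagonist, was 397, 75.4 and 166 against 19.2, 18.6 and 23.9 (-3.003 ± 0.79, limma adjusted p = 0.239). The groups were apart in all 3, and without rat 3 the fold changes were -2.06, -1.06 and -3.11. LUM, a stromal proteoglycan and fibroblast marker, was instead higher, at 412, 281 and 163 against 485, 660 and 1484 (1.55 ± 0.69, limma adjusted p = 0.564, and 1.08 without rat 3).

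Markers of luminal subtypes were read from a pair of lists. The 11 progenitor and alveolar markers tested had a median of -0.58, with 7 below 0 and 3 above and 0 at an unadjusted p below 0.05. Leaving out any 1 rat gave medians from -0.73 to -0.28, the latter without vehicle rat 2. Without rat 3 the median was -0.71 and 2 were lower at that p (beside 2.17%). They were ELF5, the transcription factor of alveolar cells, at 491, 389 and 507 against 234, 126 and 439 (-0.96, and -1.42 without rat 3), and CD14, a receptor for bacterial lipopolysaccharide, at 25507, 15396 and 19621 against 11086, 9817 and 15769 (-0.72, and -0.92 without rat 3). The summed markers of this list, which also holds the milk protein CSN3, were 89.6% to 95.5% CSN3. Without CSN3 they summed to 32473, 26178 and 25895 in vehicle-treated rats and 17475, 13693 and 21610 in TGFBRi-treated rats, with all treated rats below all vehicle rats. Per rat, the median of the list against the vehicle mean was -0.26, -0.98 and -0.06 in TGFBRi-treated rats and 0.00, 0.34 and -0.29 in vehicle-treated rats, which overlapped. The part of the number of alveolar cells in the milk protein values was not tested. The 12 hormone-sensing markers had a median of 0.18 (0.34 without rat 3) and 1 higher member (beside 4.71%). Their sum was 17424, 18489 and 18511 in vehicle-treated rats and 18900, 23696 and 54169 in TGFBRi-treated rats, with groups apart. Per rat, the median of the list against the vehicle mean was 0.21, 0.39 and 0.13 in TGFBRi-treated rats 1 to 3 and 0.05, 0.01 and -0.04 in vehicle-treated rats, so rat 3 was highest in the sum and lowest of the treated rats in the median. The higher member was PRLR, the prolactin receptor, at 1199, 727 and 1420 against 1705, 1977 and 2491, with groups apart (0.92 ± 0.34, limma adjusted p = 0.452, and 0.77 without rat 3). ESR1, the estrogen receptor, was 278, 96.7 and 377 against 329, 249 and 80.3 and PGR, the progesterone receptor, was 440.1, 1019 and 569 against 851, 1386 and 974, both with overlapping groups.

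Among the remaining lists, S phase genes had 7 higher and 0 lower of 37 at an unadjusted p below 0.05 (beside 4.71%), with a median of 0.30, or 0.13 and 4 higher (beside 4.05%) without rat 3. CASP8AP2, which is needed for histone gene expression, was 155, 107.4 and 124 against 238, 250 and 458 (1.24 ± 0.34, limma adjusted p = 0.262, and 0.93 without rat 3). G2/M genes had 2 higher and 1 lower of 48 (beside 4.71% and 3.64%) and a median of -0.12 (-0.41 without rat 3, and -0.52 to 0.25 with any 1 rat left out), and the proliferation marker MKI67 was 326, 44.2 and 131 against 63.8, 80.1 and 154. Of 15 heat shock chaperones 2 were higher and 0 lower (beside 4.71% and 3.64%), with a median of 0.62, or 0.46 and 3 higher (beside 4.05%) without rat 3. The 2 were DNAJA1 (7368, 11808 and 10691 against 19054, 22054 and 22757) and HSPB1 (2141, 5748 and 6146 against 9537, 15447 and 39177). Of 19 immediate early genes, which cell dissociation can induce, 3 were higher and 0 lower (beside 4.71% and 3.64%), or 2 higher (beside 4.05%) without rat 3. Their median was 0.29 (0.50 without rat 3, and 0.15 to 0.71 with any 1 rat left out), and FOS was 38484, 100201 and 42039 against 73511, 129499 and 142693. USP18, an interferon-induced protease, was 93.4, 75.4 and 129 against 161, 338 and 433 (1.56 ± 0.45, limma adjusted p = 0.299, and 1.26 without rat 3), and the list of 22 interferon genes had a median of 0.29, or 0.03 without rat 3.

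The remaining list medians were 0.24 for 16 NRF2 target genes, 0.01 for 15 integrated stress response genes, 0.10 for 15 circadian clock genes and 0.28 for 4 uroplakins, with 2 higher and 1 lower, 0 and 1, 0 and 0, and 0 and 0 at an unadjusted p below 0.05, beside 4.71% and 3.64% of all genes. Without TGFBRi rat 3 the medians were 0.47, 0.11, 0.47 and -0.28. With any 1 rat left out they crossed 0 for all but the NRF2 targets. Of the NRF2 targets, 5 had groups apart in the higher direction and 2 in the lower (beside 7.61% and 6.17%). Per rat, their median against the vehicle mean was 0.29, 0.46 and 0.21 in TGFBRi-treated rats 1 to 3. It was -0.03, 0.04 and -0.06 in vehicle-treated rats, so these medians did not overlap.

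To ask whether the day 14 pattern was shared by the neighboring cell layer, the basal cells of the same 6 rats were tested in the same way. limma called 0 of 15643 genes in basal cells, with 298 at an unadjusted p below 0.05, 0.940% higher and 0.965% lower. A pair of basal libraries, those of vehicle rat 1 and TGFBRi rat 3, stood apart: they correlated across genes at 0.971 with each other and at 0.927 to 0.944 with the other 4, which correlated at 0.978 to 0.980. Their ribosomal protein medians against the vehicle mean were 1.60 and 1.39, against -1.29 to -0.75 in the other 4, and their matrix medians were -1.62 and -1.68, against 0.38 to 0.85. Without this pair, left out after the data were seen, limma called 0 basal genes, with 0.742% higher and 0.486% lower at an unadjusted p below 0.05. Milk protein genes were also measured in the basal sort: CSN2 was 28653, 168 and 3572 in the basal cells of vehicle-treated rats 1 to 3 and 49.7, 24.2 and 46.8 in those of TGFBRi-treated rats 1 to 3. The order of the vehicle rats was the one in luminal cells, and 5 of 12 milk protein genes were lower in basal cells at an unadjusted p below 0.05 (beside 0.965%), with a median of -1.92, or 3 (beside 0.486%) and -1.54 without the pair. The part of luminal RNA carried into the basal sort was not tested. ABCG2 was likewise 43.8, 11.6 and 22.98 against 0.857, 0 and 5.20 in basal cells.

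SR genes had a median of 0.33 in basal cells and 4 of 50 were higher (beside 0.940%), or 0.40 and 9 (beside 0.742%) without the 2 libraries that stood apart. SRSF7 was 2509, 1751 and 1799.8 in vehicle-treated rats against 4699, 4165 and 3824, and RSRP1 was 2723, 1811 and 2461 against 5891, 4874 and 5229, with the treated rats above the vehicle rats in both. Per rat, the basal SR median was 0.31, 0.30 and 0.69 in TGFBRi-treated rats and 0.33, -0.31 and -0.06 in vehicle-treated rats, so basal groups overlapped through vehicle rat 1. Cholesterol genes had a basal median of 0.37 with 1 of 25 higher (beside 0.940%), or 0.24 and 1 (beside 0.742%) without those 2 libraries, with MSMO1 at 1073, 899 and 962 against 1678, 1701 and 2880 and IDI1 at 4006, 1860 and 1348 against 1403, 1908 and 6691. MSMO1 groups were apart and IDI1 groups were not. Per rat, the basal cholesterol median was 0.35, 0.47 and 0.50 in TGFBRi-treated rats and -0.20, 0.30 and -0.17 in vehicle-treated rats, so these groups did not overlap.

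The difference of the effect between the cell layers was tested with the rat as a block. limma called 0 of 13179 genes, with 621 at an unadjusted p below 0.05, and edgeR called 0, with 514. For IDI1 the luminal effect exceeded the basal effect by 1.87 ± 0.50 on the log2 scale (limma adjusted p = 0.799), and for SRSF7 by 0.81 ± 0.39 (limma adjusted p = 0.799). Fatty acid genes had negative fold changes in luminal cells and fold changes of 0.28 (FASN) and 0.38 (ACACA) in basal cells, and the difference of effects was -3.12 ± 1.16 for FASN and -2.13 ± 0.82 for ACACA (limma adjusted p = 0.799 for both), and 5 of 20 milk fat genes had a negative difference and 0 a positive one at an unadjusted p below 0.05 (beside 1.68% and 3.04%), as did 5 and 0 without TGFBRi rat 3 (beside 1.40% and 1.66%). Without TGFBRi rat 3 and vehicle rat 1, also left out after the data were seen, limma called 0 genes for this difference, and 6 of 20 milk fat genes had a negative and 0 a positive one (beside 2.13% and 2.81%). The median difference of the milk fat list was -0.55 with all rats, -0.51 without TGFBRi rat 3 and -0.03 without both rats. In the same order, it was 0.40, 0.58 and 0.55 for cholesterol genes, with 1, 3 and 7 of 25 positive at that p (beside 3.04%, 1.66% and 2.81%). For SR genes it was 0.51, 0.61 and 0.29, with 3, 1 and 6 of 50 positive. For milk proteins it was 1.12, 0.77 and 0.11, with 1, 0 and 0 of 11 positive. None of these 3 lists had a negative member at that p. No gene can therefore be called particular to luminal cells.

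Luminal cells of the earlier days, from other rats, placed the day 14 values on a time scale. CSN2 was 721 to 1146 in vehicle-treated rats and 838 to 1650 in TGFBRi-treated rats on day 0, so the treated rats of day 14 (541 to 2998) spanned the day 0 levels while the vehicle rats of day 14 were above them. On day 7 CSN2 was 25996, 1965 and 120567 in vehicle-treated rats and 4330, 858 and 196 in TGFBRi-treated rats, with overlapping groups. The day 7 vehicle-treated rat 3 is called control by its title and characteristics but treated in its description, and it was taken as vehicle. Its luminal library had a total of 2.89e+07 normalized counts, against 1.22e+07 and 1.46e+07 in day 7 vehicle rats 1 and 2. The library of TGFBRi rat 3 on day 14 had a similar total, 2.70e+07. ABCG2 was 157, 193 and 106.1 in vehicle-treated rats against 209, 100.3 and 238 on day 0 and 797, 416 and 838 against 221, 160 and 84.3 on day 7. Its groups overlapped on day 0 and were apart on day 7 and day 14, and the day 7 fold change was -2.17 ± 0.44, beside -2.19 ± 0.44 on day 14.

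For some of the higher genes the vehicle rats of day 14 were lower than those of earlier days. SRSF7 was 2046 to 3186 in day 0 vehicle rats and 1767 to 3486 in day 7 vehicle rats but 627 to 877 in day 14 vehicle rats. The day 14 treated rats ran from 1980 to 3611, and all but the highest lay in the range of the earlier vehicle rats. MSMO1 was 1633 to 3567 on day 0 and 949 to 2442 on day 7 in vehicle-treated rats, against 784 to 1053 on day 14, and RSRP1 was 4309 to 5771, 2305 to 3562 and 3034 to 3100. The day 14 vehicle rats were thus below both earlier days for SRSF7 only. Day, age and the rats themselves cannot be told apart here. The SR list had a median fold change of 0.23 on day 0 and 0.12 on day 7, and the cholesterol list 0.20 and 0.10, with 0 members called by limma on day 0 in either list. Milk protein genes had a median of 0.28 on day 0 and -1.13 on day 7, when 5 of 12 were lower and 0 higher at an unadjusted p below 0.05 (beside 3.40% and 4.32%). The day 7 vehicle group includes the rat of unclear label and large normalized total, which had the highest CSN2 of that day. Day 7 list values without it are not given.

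At the end of dosing the same fit called 153 luminal genes (125 higher, 28 lower), and 0 on day 7, with 1172 at an unadjusted p below 0.05. The 125 genes that were called higher on day 0 had a median of 3.77 then and 0.27 on day 14 (0.12 without rat 3), with 73 above 0 and 36 below, beside 52.2% above and 40.1% below over all genes. They were chosen by their day 0 values, so the smaller median does not test whether an effect faded. Many were near 0 on day 14, and CYP2E1, ATP1A4 and WNT8B had means of 0 in both groups. Genes above 0 on day 0 numbered 15060, 15143 and 12976 in TGFBRi libraries and 13296, 12100 and 12096 in vehicle libraries. On day 14, 11 of the 125 were higher and 5 lower at an unadjusted p below 0.05 (beside 4.71% and 3.64%). The 28 genes called lower had a median of -2.38 on day 0 and -0.15 on day 14 (-0.45 without rat 3), with 10 above 0 and 18 below, and 7 of them were lower and 0 higher at that p on day 14. LTBP2 was -3.62 on day 0, 1.32 on day 7 and -2.01 on day 14, with the opposite sign on day 7. LPO, at 4.07 on day 0 and -3.16 on day 14, and SCD, a fatty acid desaturase at 4.65 and -1.98, had fold changes of opposite sign, and for neither did limma call the difference of days.

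SSPO was the 1 gene whose effect differed between day 14 and day 0 in limma. It encodes SCO-spondin, a secreted protein known from the brain, and was low in every library. On day 14 it was 52.7, 11.4 and 27.7 in vehicle-treated rats and 1.54, 0.844 and 0 in TGFBRi-treated rats, whereas on day 0 it was 0.783, 0 and 0 in vehicle-treated rats and 19.9, 36.8 and 20.4 in TGFBRi-treated rats. The groups were apart on both days in opposite directions. The difference of the 2 effects was -8.40 ± 1.12 on the log2 scale (limma adjusted p = 0.0176), while edgeR gave an adjusted p of 0.0503. Leaving out 1 day 14 rat at a time gave -7.90 to -8.96 with limma adjusted p from 0.0181 to 0.102. For day 14 against day 7, limma called 0 genes, with 1005 at an unadjusted p below 0.05, and edgeR called 0, with 1606.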

How the data were processed

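RNA of under 10 ng per sorted sample was amplified with the SMARTer v4 low-input kit and sequenced as single-end reads. According to the submitters' processing notes and the methods, the authors aligned reads with STAR 2.5.1b to rn6, counted them per gene with HTSeq without strand and normalized with DESeq2 1.30.1. The deposited values are signal values, counts divided by a size factor per library. In 36 tables, 100% of 483768 values above 0 were whole multiples of the value of 1 read within 0.001, so reads were recovered. Over these recovered reads edgeR called 0 genes on day 14. Because counting ignored strand, overlapping antisense genes cannot be told apart.

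limma 3.58.1 (R 4.3.3) was fitted to log2(normalized count + 1) of 18 luminal libraries in 6 groups of 3 (day 0, 7 and 14), with trended, robust variances, for genes summing to at least 10, and Benjamini-Hochberg adjusted p of 0.05. edgeR 4.0.16 and DESeq2 1.42.0 on recovered reads, other filters, pseudocounts, scaling and left-out rats were alternatives. Luminal and basal libraries of 1 rat share an animal number in the labels, so the rat was a block in that comparison. Their deviations from the group means correlated at 0.0472 to 0.693. For TGFBRi rat 2 and vehicle rat 1 the luminal library correlated better with the basal library of another rat. P-values measure the spread between rats. Replicate numbers follow accession order.

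Named genes had a mean of at least 50 normalized counts and groups apart, and were the 12 with the smallest p and the 5 with the largest fold in each direction, with up to 5 members of each list, defining markers and any gene past a test of a difference. Further list members were named to describe the pathways. The comparison, the lists and the members of the lists were chosen with earlier results of these data known. The other 205 tables were not used. Some genes are not reported here.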

Additional observations from a re-analysis of the deposited data

Results flagged for a closer look

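SSPO stood out because the effect of TGFBRi in luminal cells differed between days, with a difference of -8.40 on the log2 scale between day 14 and day 0 in limma. Its level was above the vehicle rats in all 3 TGFBRi-treated rats on day 0 and below them in all 3 on day 14. Levels were at most 52.7 normalized counts on these days, different rats were used on each day, and the edgeR adjusted p of 0.0503 lay just past the threshold.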

How the results depend on the processing

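No paired analysis was possible because TGFBRi and vehicle were given to different rats and replicate numbers only follow accession order. For luminal minus basal, where the rat was the replicate block, 0 genes were called with the block (621 at an unadjusted p below 0.05), 0 without it (302) and 0 by edgeR with it (514). On day 14, DESeq2 called 256 genes, or 150 without TGFBRi rat 3, left out after the data were seen, limma on the 6 day 14 libraries alone called 6 (CADM2, MAP7D3, MRGPRG, RGD1565166, SLC43A2 and SLC9A4, named after their values were seen), and leaving out 1 rat gave 0 to 1. The 1 was MACC1 without vehicle rat 3 (limma adjusted p = 0.0246). Genes at an unadjusted p below 0.05 numbered 715 higher and 553 lower in limma (56.4% higher), 980 and 491 in edgeR (66.6%), and 1249 and 591 in DESeq2 (67.9%). The ranges with 1 rat left out were 439 to 986 higher and 266 to 941 lower, the lowest of both without vehicle rat 1 and the highest of both without TGFBRi rat 1. Without TGFBRi rat 3, 330 were lower. The median of all genes was 0.12 in DESeq2 and 0.04 in limma. For day 14 minus day 0, edgeR called 0 genes (1220 at an unadjusted p below 0.05) and leaving out 1 rat gave 0 to 5, with 0 without TGFBRi rat 2 or 3 or vehicle rat 1 or 3. The SR median ran from 0.67 to 1.01 with 1 rat left out and was 0.67 without TGFBRi rat 3 and the day 7 rat of unclear label, which were left out together after the data were seen. The cholesterol median ran from 0.51 to 0.87 and was 0.87 without those 2 libraries. Milk protein genes lower at an unadjusted p below 0.05 numbered 2 to 6 and 8 without those 2 libraries. In edgeR, DESeq2, limma on day 14 alone, each of 6 rats left out and the 2 libraries left out together, 32 named genes gave 320 values, of which 29 passed the threshold, 28 of them in DESeq2 and 1 with a rat left out. The causes were not tested. Reads per library limit genes near 0, where 1 read was worth 0.749 to 1.71 normalized counts.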
